A study of Mus musculus with 12 samples.

Results

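Havcr1, Vcam1, Icam1, Cd44, Lcn2, Clu, Spp1, Fga and Sox9 are genes whose messenger RNA is commonly read as a sign of injury in kidney tubules. They were picked by gene symbol from a table of 20819 genes, in which each of the 9 symbols occurs 1 time. They were measured by RNA sequencing in tubuloids, epithelial structures grown in Matrigel from dissociated kidney cortex of wildtype mice, 4 in number. Of the 12 libraries, 4 come from tubuloids given myoglobin and 100 nM dexamethasone, 4 from tubuloids given myoglobin, and 4 from tubuloids given vehicle, all at 12 h. All groups are labelled as primary renal tubular epithelial cells of the same genotype, and dexamethasone was given only on top of myoglobin. Strain, sex and age of the mice, the myoglobin concentration and the mouse behind each library are not given in the sources used here. Replicate numbers may therefore stand for technical repeats, and p-values measure no more than the spread among these libraries.

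Myoglobin is the haem protein that damaged muscle releases and that the kidney filters, and the study's design names it as the injuring agent. Dexamethasone is a synthetic agonist of the glucocorticoid receptor, a transcription factor that raises some genes by binding DNA and restrains others, many of them driven by NF-kB. The markers belong to different parts of the injury programme. Havcr1 encodes kidney injury molecule KIM-1, a phagocytic receptor on injured proximal tubules. Vcam1, Icam1 and Cd44 encode adhesion proteins, the first 2 being textbook targets of NF-kB. Lcn2 encodes the iron-siderophore carrier NGAL, Clu the extracellular chaperone clusterin, Spp1 the matrix phosphoprotein osteopontin and Fga the alpha chain of fibrinogen. Sox9 encodes a transcription factor of tubular repair.

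A value below is a normalised read count, that is, the reads of a gene divided by a size factor of its library and rounded. A gene passed, and is said to have risen or fallen, when limma's adjusted p over 14558 tested genes was below 0.05. All 9 markers were among the tested genes. Changes are given on the log2(value + 1) scale ± their standard error (SE), and a group is summarised by mean ± SD (n = 4 libraries). The values of 1 library sum to 5.34 to 5.73 M in the group given both agents, 5.32 to 5.35 M in the myoglobin group and 5.25 to 5.29 M in the vehicle group. Replicate 4 of myoglobin with dexamethasone stood apart, with an estimated 3.25 M reads against 4.85 to 5.92 M in the other 11 libraries. Marker changes that it moves across the threshold are given without it as well. Counts of passing genes rest on all 12 libraries unless stated, and some of them change without it. The haem oxygenase gene Hmox1 averaged 460 ± 13.7 in the myoglobin libraries and 113 ± 7.72 in the vehicle libraries. The glucocorticoid target Fkbp5 averaged 554 ± 45.0 with myoglobin and dexamethasone and 243 ± 15.4 with myoglobin.

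The epithelial label was checked against marker genes. All 12 markers of tubular epithelium had a mean of at least 10, with summed values of 10927 to 14611 with myoglobin and dexamethasone, 10426 to 11016 with myoglobin and 11405 to 11696 with vehicle. Of the defining markers of the proximal tubule, Lrp2 (288 to 374, 351 to 456 and 216 to 264 in the same order of groups) and Hnf4a (5 to 23 over all libraries) were present, whereas Cubn, Slc34a1 and Slc5a2 lay between 0 and 7. All 11 measured markers of the distal nephron had a mean of at least 10, with summed values of 4989 to 5590 with both agents, 3941 to 4369 with myoglobin and 4834 to 5660 with vehicle. Of these 11, 7 fell and 1 rose with myoglobin (median -0.99), 3 rose with added dexamethasone, and 8 fell and 2 rose with both agents against vehicle (median -0.76). Without replicate 4 of both agents, 4 rose with added dexamethasone and 7 fell with both agents. Of all tested genes, 18.3%, 6.98% and 28.6% passed in the 3 comparisons, in the same order. The part of the distal markers in the changes of the injury markers was not tested. In a bulk library, fewer cells of a type and less RNA per cell cannot be told apart.

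**Figure D1:**
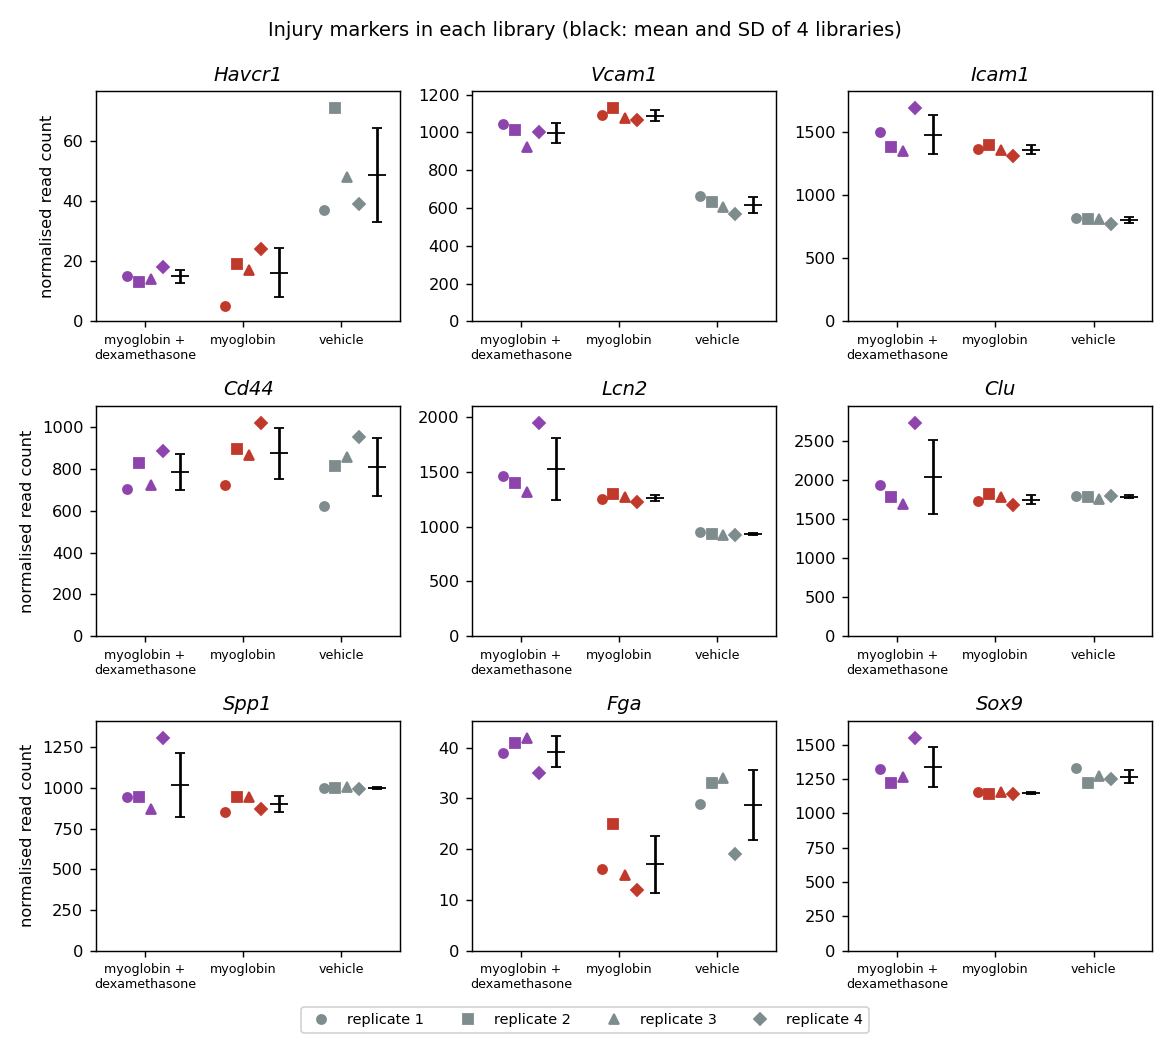
Normalised read count (y axes, from 0) of each of the 9 injury markers in each library, by treatment, with the mean and SD of 4 libraries in black and replicate numbers as symbols. Vcam1, Icam1 and Lcn2 lie higher in both myoglobin groups than with vehicle, Havcr1 lies lower, Fga has its lowest mean with myoglobin alone, and replicate 4 of myoglobin with dexamethasone is the top point for Lcn2, Clu, Spp1, Icam1 and Sox9.

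The first comparison asks what myoglobin does to the markers. Of the 9 markers, Vcam1, Icam1 and Lcn2 rose, Havcr1 and Fga fell, and Clu, Spp1, Sox9 and Cd44 did not pass. Of all tested genes, 18.3% passed in this comparison, 8.71% higher (1268 genes) and 9.62% lower (1401 genes). With upper-quartile scaling these numbers were 1055 and 1663, and without replicate 4 of both agents 1926 and 1868 (3794 genes in either direction). The 4 values of one group all lay beyond those of the other for 6 markers, and for 25% of tested genes. The median log2 change of the 9 markers was -0.03, beside 0.0026 for all tested genes.

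The second comparison asks what dexamethasone adds in tubuloids that also receive myoglobin. Fga and Sox9 rose and the other 7 markers did not pass, while 6.98% of all tested genes passed, 3.08% higher and 3.9% lower (448 and 568 genes, or 487 and 404 when libraries were scaled on sparsely read genes, an alternative added after the data were seen). At an unadjusted p below 0.05 the limma test gave 3 markers higher and 1 lower, beside 3226 of 14558 tested genes in either direction. The groups did not overlap for 4 markers and for 13.2% of tested genes. The third comparison sets both agents together against vehicle. Vcam1, Icam1 and Lcn2 rose and Havcr1 fell, with 28.6% of all tested genes passing, and the groups did not overlap for 5 markers and for 28.6% of tested genes. The 3 comparisons share libraries, so they are not independent of each other.

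Havcr1 (ENSMUSG00000040405, chromosome 11, 46735080 to 46779578, plus strand, mm10) had values of 15, 13, 14 and 18 with myoglobin and dexamethasone (replicates 1 to 4, as in all such lists), 5, 19, 17 and 24 with myoglobin, and 37, 71, 48 and 39 with vehicle. Every vehicle library lay above the 8 others, and the groups with and without dexamethasone overlapped. Havcr1 averaged 16.3 ± 8.06 with myoglobin and 48.8 ± 15.6 with vehicle, and fell by 1.66 ± 0.35 (95% interval -2.41 to -0.90, limma adjusted p 0.00361). With both agents it averaged 15.0 ± 2.16, a change of -1.60 ± 0.35 relative to vehicle (limma adjusted p 0.00353). Adding dexamethasone to myoglobin gave 0.06 ± 0.35, with an interval of -0.70 to 0.82 that holds changes in either direction (limma adjusted p 0.942). Havcr1 and Fga had the lowest values of the 9 markers.

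Vcam1 (ENSMUSG00000027962, chromosome 3, 116109949 to 116129688, minus strand) encodes the ligand of the leukocyte integrin VLA-4. Its values were 1044, 1015, 925 and 1003 with myoglobin and dexamethasone, 1092, 1127, 1074 and 1065 with myoglobin, and 666, 630, 606 and 567 with vehicle. The vehicle libraries lay below all others, and each library with dexamethasone lay below each with myoglobin alone. Vcam1 averaged 1090 ± 27.4 with myoglobin and 617 ± 41.6 with vehicle, and rose by 0.82 ± 0.050 (limma adjusted p 1.49e-08). With both agents it averaged 997 ± 50.8 and stood 0.69 ± 0.050 above vehicle (limma adjusted p 1.03e-07). The change with added dexamethasone, -0.13 ± 0.050, did not pass (limma adjusted p 0.146). It passed with quantile normalization and with array weights (-0.18 and -0.15, limma adjusted p 0.0406 and 0.0482, with 0.0406 to 0.302 over all alternatives).

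Icam1 (ENSMUSG00000037405, chromosome 9, 21015985 to 21028817, plus strand) encodes the ligand of the leukocyte integrin LFA-1. It had 1500, 1380, 1353 and 1687 with myoglobin and dexamethasone, 1368, 1398, 1357 and 1312 with myoglobin, and 821, 810, 808 and 768 with vehicle. The vehicle libraries were again the lowest, while the other 2 groups overlapped. Icam1 averaged 1359 ± 35.7 with myoglobin and 802 ± 23.2 with vehicle, and rose by 0.76 ± 0.058 (limma adjusted p 1.66e-07). With both agents it averaged 1480 ± 152 and stood 0.88 ± 0.058 above vehicle (limma adjusted p 3.05e-08). Relative to myoglobin alone the change was 0.12 ± 0.058 (limma adjusted p 0.242), and 0.05 without replicate 4 (limma adjusted p 0.441, with 0.116 to 0.482 over all alternatives).

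The sequence upstream of Icam1 is shown because a 9-base site for NF-kB lies in it. RefSeq's table (GRCm38.p6) has a promoter entry for 6 of the 9 markers, Havcr1, Lcn2, Icam1, Spp1, Cd44 and Fga, and not for Vcam1, Clu and Sox9. The 250 bases before each annotated start were searched on both strands. The letters GGAAATTCC, in capitals, begin 153 bases before the start of Icam1 and occur in 0.286% of 32851 promoter windows of that length. This exact string was searched in addition to the general consensus, and its low share is not a test of the match. A search with the general NF-kB consensus, which 3.90% of windows hold, and with the AP-1 letters TGANTCA (6.75% of windows) matched none of the 6 markers. The letters TTCNNNGAA, bound by STAT factors, matched Icam1 at 42 bases and Fga at 234 bases before the start, and occur in 7.02% of windows. A match is a description of letters and does not show a bound site.

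Icam1, chr9:21015690-21015939, plus strand: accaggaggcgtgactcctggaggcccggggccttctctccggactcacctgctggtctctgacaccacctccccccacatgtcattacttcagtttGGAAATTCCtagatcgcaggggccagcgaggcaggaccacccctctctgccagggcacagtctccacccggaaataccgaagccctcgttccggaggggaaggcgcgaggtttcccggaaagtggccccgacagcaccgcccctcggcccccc

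Cd44 (ENSMUSG00000005087, chromosome 2, 102811141 to 102901665, minus strand) encodes the hyaluronan receptor. Its values were 706, 829, 723 and 887 with myoglobin and dexamethasone, 722, 898, 866 and 1021 with myoglobin, and 622, 816, 858 and 952 with vehicle. All 3 groups overlapped, and in each of them the library numbered 1 was lowest and the library numbered 4 highest. Cd44 stood at 0.12 ± 0.12 for myoglobin against vehicle, with an interval of -0.14 to 0.37 (limma adjusted p 0.566). With added dexamethasone it stood at -0.15 ± 0.12, with an interval of -0.41 to 0.10 (limma adjusted p 0.479). Its coefficient of variation of 17.1% with vehicle compares with a median of 3.57% for genes at 0.1 to 0.3 reads per exonic base.

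Lcn2 (ENSMUSG00000026822, chromosome 2, 32384633 to 32388252, minus strand) had 1460, 1395, 1314 and 1947 with myoglobin and dexamethasone, 1253, 1299, 1271 and 1224 with myoglobin, and 951, 928, 927 and 924 with vehicle. The groups formed 3 steps without overlap, vehicle lowest and both agents highest. Lcn2 averaged 1262 ± 31.5 with myoglobin and 932.5 ± 12.4 with vehicle, and rose by 0.44 ± 0.086 (limma adjusted p 0.00193). With both agents it averaged 1529 ± 285 and stood 0.70 ± 0.086 above vehicle (limma adjusted p 2.49e-05). The difference between both agents and myoglobin alone, 0.26 ± 0.086, missed the threshold (limma adjusted p 0.0848). Leaving out replicate 4 of both agents gave 0.14 and leaving out replicate 3 gave 0.33, which passed in both cases (limma adjusted p 0.0224 and 0.0345, with 0.0224 to 0.192 over all alternatives). The difference also passed with quantile normalization (0.18, limma adjusted p 0.0443). Lcn2 is also counted among the canonical glucocorticoid targets below.

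Clu (ENSMUSG00000022037, chromosome 14, 65968483 to 65981547, plus strand) had 1935, 1786, 1693 and 2728 with myoglobin and dexamethasone, 1724, 1816, 1775 and 1678 with myoglobin, and 1798, 1782, 1754 and 1792 with vehicle. Apart from the value of 2728, all libraries lay within 1678 to 1935, and the groups overlapped. The change with myoglobin was -0.03 ± 0.10, with an interval of -0.25 to 0.19 (limma adjusted p 0.891). With added dexamethasone it was 0.19 ± 0.10 (limma adjusted p 0.287), and 0.04 without replicate 4 (limma adjusted p 0.550, with 0.125 to 0.640 over all alternatives).

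Spp1 (ENSMUSG00000029304, chromosome 5, 104435118 to 104441050, plus strand) had 944, 945, 870 and 1309 with myoglobin and dexamethasone, 851, 942, 947 and 870 with myoglobin, and 999, 999, 1005 and 996 with vehicle. Each myoglobin library lay below each vehicle library, and 3 of the 4 libraries with both agents did so too. The change with myoglobin was -0.15 ± 0.091 (limma adjusted p 0.298). When replicate 4 of both agents was left out, which enters the shared estimate of spread, the same change passed (limma's adjusted p was 0.00959, within 0.00959 to 0.466 over all alternatives). For both agents against vehicle the change was 0.01 ± 0.091 (limma adjusted p 0.968), and without replicate 4 it turned to a fall of 0.12 (limma adjusted p 0.0387, with 0.0387 to 0.981 over all alternatives).

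Sox9 (ENSMUSG00000000567, chromosome 11, 112782224 to 112787760, plus strand) had 1320, 1223, 1261 and 1550 with myoglobin and dexamethasone, 1154, 1140, 1151 and 1142 with myoglobin, and 1330, 1220, 1269 and 1248 with vehicle. The myoglobin libraries lay below all 8 others, and the groups with both agents and with vehicle overlapped. Sox9 averaged 1339 ± 147 with both agents and 1147 ± 6.80 with myoglobin, and rose by 0.22 ± 0.059 (limma adjusted p 0.0380). Without replicate 4 the rise was 0.14 and passed (limma adjusted p 0.0141), but it did not pass without vehicle replicates 2 or 3, without any 1 of the 4 myoglobin replicates, or without replicate 1 of both agents (0.21 to 0.22, limma adjusted p 0.0532 to 0.0958, with 0.0133 to 0.0958 over all alternatives). Nor did the rise pass in a model of the 2 compared groups (0.22, limma adjusted p 0.0912) or with scaling on sparsely read genes (0.25, limma adjusted p 0.0543). For myoglobin against vehicle, with 1267 ± 46.7 in the vehicle group, the change of -0.14 ± 0.059 missed the threshold (limma adjusted p 0.115). That change passed when replicate 4 of both agents was left out (limma adjusted p 0.00304, with 0.00129 to 0.251 over all alternatives).

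Fga (ENSMUSG00000028001, chromosome 3, 83026076 to 83033627, plus strand) had 39, 41, 42 and 35 with myoglobin and dexamethasone, 16, 25, 15 and 12 with myoglobin, and 29, 33, 34 and 19 with vehicle. The libraries with dexamethasone lay above all others, and the myoglobin and vehicle groups overlapped. Fga averaged 39.3 ± 3.10 with both agents and 17.0 ± 5.60 with myoglobin, and rose by 1.21 ± 0.23 (limma adjusted p 0.00438). It averaged 28.8 ± 6.85 with vehicle, and relative to vehicle it fell with myoglobin (-0.74 ± 0.23, limma adjusted p 0.0316). This fall did not pass without vehicle replicates 1, 2 or 3 or without myoglobin replicates 1, 3 or 4 (-0.60 to -0.73, limma adjusted p 0.0611 to 0.102, with 0.00705 to 0.102 over all alternatives). Nor did this fall pass with quantile normalization (-0.60, limma adjusted p 0.0557). Both agents against vehicle gave 0.47 ± 0.23 (limma adjusted p 0.133).

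The genes of the other 2 fibrinogen chains, which the liver makes together with Fga, were lower still. Fgb had 9 to 23 with both agents, 9 to 20 with myoglobin and 9 to 18 with vehicle, and its change with added dexamethasone was 0.16 ± 0.33 (limma adjusted p 0.815). Fgg had 4 to 14, 1 to 5 and 4 to 8 in the same order and was below the filter on low values. Of 8 hepatocyte markers, 4 were measured and none reached a mean of 10, with summed values of 13 to 21 with both agents, 15 to 24 with myoglobin and 11 to 21 with vehicle. The stretch upstream of Fga is shown because it holds the letters ACANNNTGT, a spaced palindrome that the glucocorticoid receptor binds, as ACACACTGT, in capitals, 86 bases before the RefSeq start. The stretch is printed as far as the gene start in the table. These letters occur in 5.84% of promoter windows and were also found before Lcn2 (ACAGAATGT, 152 bases) and before 1 of 3 starts of Havcr1 (ACATAGTGT, 53 bases).

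Fga, chr3:83025903-83026075, plus strand: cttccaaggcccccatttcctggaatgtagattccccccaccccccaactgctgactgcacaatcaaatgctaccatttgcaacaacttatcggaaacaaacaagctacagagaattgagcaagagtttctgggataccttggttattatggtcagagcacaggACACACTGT

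**Figure D2:**
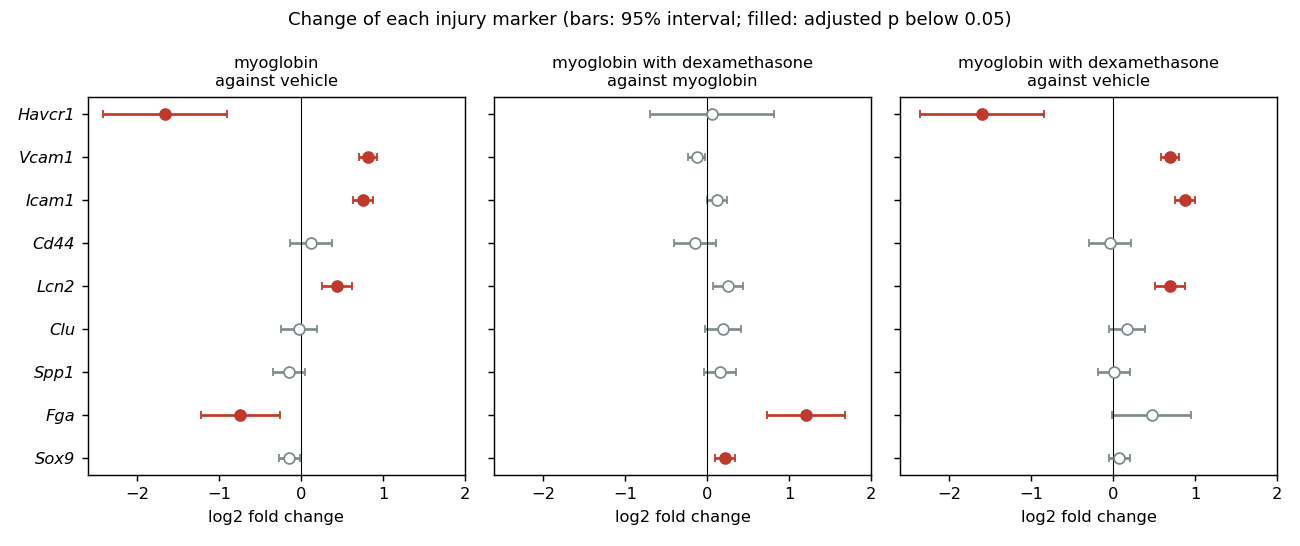
Log2 fold change (x axis) of the 9 injury markers in the 3 comparisons, with 95% intervals from limma, filled where the adjusted p was below 0.05. The markers point in different directions for myoglobin against vehicle, from -1.66 for Havcr1 to 0.82 for Vcam1, and the intervals of Clu, Spp1 and Cd44 include 0 in every comparison.

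Whether pairs of markers changed by different amounts was tested on the difference of their log2 values in each library, with a two-sided exact permutation test of 4 against 4 libraries. That design allows no p below 0.0286. Of 36 pairs, 23 reached this smallest p for myoglobin against vehicle, 12 for added dexamethasone and 21 for both agents against vehicle. Adjusted over all 108 tests, the smallest p was 0.0551, so 0 pairs passed, against 56 at an unadjusted exact permutation p below 0.05. Pairs at the smallest p share the same adjusted p and pass or fail together. The number that passed thus depends only on how many pairs reach that p, and 0 does not show that markers changed alike.

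For myoglobin against vehicle, the change of Havcr1 minus that of Vcam1 was -2.48 ± 0.51 (difference ± SE), and that of Lcn2 minus that of Icam1 was -0.32 ± 0.018. Vcam1 minus Icam1 gave 0.06 ± 0.031 (exact permutation p 0.114). With added dexamethasone Vcam1 minus Icam1 gave -0.25 ± 0.066, which did not pass (exact permutation p 0.0286, adjusted 0.0551). Lcn2 minus Vcam1 gave 0.39 ± 0.12 in the same comparison, and Vcam1 minus Fga gave -1.33 ± 0.21.

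Likeness between patterns was measured as the root mean square difference of the centred log2 values over the 12 libraries, a description in which libraries and scaling are shared. The markers closest to each other were Clu and Spp1 (0.080), Spp1 and Sox9 (0.086), Clu and Sox9 (0.10), Vcam1 and Icam1 (0.13) and Lcn2 and Icam1 (0.15). On the same measure, the spread around a gene's own mean was 0.18 for Clu, 0.15 for Spp1 and 0.12 for Sox9. It was 0.31 for Lcn2, 0.37 for Vcam1 and 0.40 for Icam1. Genes that vary little lie close on this measure whatever their pattern. The highest library of Clu, Spp1 and Sox9 was replicate 4 of myoglobin with dexamethasone (2728, 1309 and 1550). Havcr1 was 0.88 or more from every other marker. Among all other tested genes, Icam1 lay nearest to Nfkbia, an inhibitor of NF-kB (0.057), and Tnfaip2, a gene induced by TNF (0.062). Vcam1 lay nearest to the phosphodiesterase gene Pde4b (0.078) and Tent5b (0.086), and Lcn2 to Chil1 (0.061) and H6pd (0.065). For Clu the nearest was Ldhb, for Spp1 Ptms and Tle5, for Sox9 Bmp7 and Gprc5b, and for Cd44 St3gal1 and Mthfd1l, all at 0.029 to 0.074. The low-count markers had no close neighbour, with Habp2 and Col9a1 at 0.45 from Havcr1, and Rasd1, which encodes a dexamethasone-induced Ras protein, at 0.26 from Fga.

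Genes around the markers were described by list. Of 33 tested NF-kB subunits, inhibitors and targets, which exclude the markers, 27 rose and 1 fell with myoglobin. Of all tested genes, 18.3% passed. The median of the 33 was 0.64 beside 0.0026 for all tested genes. Tnf, the cytokine, averaged 459.5 ± 7.94 with myoglobin and 181 ± 4.79 with vehicle (1.34 ± 0.042), and the chemokine gene Ccl20 rose by 1.99 ± 0.070. Traf1, a TNF receptor adaptor, was the member that fell (-0.72 ± 0.14). With added dexamethasone 3 of the 33 fell (4 without replicate 4), a share near the 6.98% of all tested genes that passed. Among the 3 were Ccl20 (-0.43 ± 0.070) and Cxcl10 (-0.78 ± 0.15). The median of the 33 was -0.02 beside 0.0063 for all tested genes. For both agents against vehicle 26 rose and 1 fell, with a median of 0.69, beside 28.6% of all tested genes passing.

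Other genes of tubular injury and failed repair were counted next. Of 41 tested, 6 rose and 3 fell with myoglobin, with a median of -0.03, a share close to the 18.3% of all tested genes. The chemokine genes Cxcl16 (0.91 ± 0.053) and Cxcl1 (1.41 ± 0.094) rose, whereas Tnc, which encodes the matrix protein tenascin C (-2.08 ± 0.25), and the stress factor gene Atf3 (-0.79 ± 0.12) fell. With added dexamethasone 2 rose and 2 fell, again near the share of all tested genes (6.98%), with 5 falls without replicate 4. Those that rose were Krt20, a keratin gene of injured tubules (1.87 ± 0.40), and Mmp7, which encodes the protease matrilysin (0.38 ± 0.10). Those that fell were the matricellular genes Ccn1 (-0.76 ± 0.10) and Ccn2 (-0.33 ± 0.065). For both agents against vehicle 7 rose and 9 fell (12 without replicate 4), beside 28.6% of all tested genes passing.

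Acute phase genes, with IL-6 signalling and C/EBP factors, were listed beside Fga and Lcn2. With myoglobin 7 of 18 tested rose and 2 fell, with a median of 0.14, and 9 rose and 5 fell without replicate 4 of both agents. Of all tested genes, 18.3% passed in that comparison and 6.98% with added dexamethasone. Cebpd, a transcription factor of acute phase genes, rose by 1.26 ± 0.072 and Saa3, a serum amyloid gene, by 1.45 ± 0.15. Socs3, the feedback inhibitor of STAT3 signalling, fell (-0.55 ± 0.069). With added dexamethasone Serpina3n, a protease inhibitor gene, rose to 232 ± 29.9, against 73.3 ± 15.3 with myoglobin (1.67 ± 0.14), as did the kinase gene Jak2 (0.20 ± 0.051). The other 16 tested members did not pass, and without replicate 4 the number that rose was 3. For both agents against vehicle 10 rose and 2 fell, beside 28.6% of all tested genes passing.

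Of 24 tested glucocorticoid targets, Lcn2 among them, 11 rose and 1 fell with added dexamethasone, with a median of 0.27 beside 0.0063 for all tested genes. Scnn1a, a subunit gene of the epithelial sodium channel, rose by 2.05 ± 0.097 and Fkbp5 by 1.19 ± 0.073, while the receptor gene Nr3c1 fell (-0.25 ± 0.054). With myoglobin alone 6 of this list rose and 3 fell, with a median of 0.07, and Lcn2, Nfkbia (0.81 ± 0.062) and Cebpd were among those that rose. Both agents against vehicle gave 14 that rose and 1 that fell (2 without replicate 4). Of all tested genes, 6.98% passed for added dexamethasone, 18.3% for myoglobin and 28.6% for both agents against vehicle.

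Ligands, receptors and shedding proteases of the marker proteins were counted as well. With myoglobin 7 of 28 tested rose and 4 fell, beside 18.3% of all tested genes passing. Lrp2, which encodes megalin, an uptake receptor for Lcn2 protein, averaged 387 ± 48.2 with myoglobin and 233 ± 22.2 with vehicle (0.73 ± 0.10), and the integrin gene Itgb5 rose by 0.35 ± 0.052. Itga9, whose integrin binds osteopontin and VCAM-1, fell (-0.43 ± 0.054), and so did the hyaluronidase gene Cemip (-0.998 ± 0.13). With added dexamethasone Mmp7 rose and Itga9 fell further (-0.23 ± 0.054), and 26 did not pass. The share that passed was near that of all tested genes (6.98%). Without replicate 4 the number that rose was 2. Of 18 tested genes of the proximal tubule, 2 rose and 5 fell with myoglobin, beside 18.3% of all tested genes passing, with a median of -0.17. Lrp2 and the glucose transporter gene Slc5a1 (0.46 ± 0.059) rose, and the protease genes Napsa (-0.63 ± 0.060) and Dpp4 (-0.40 ± 0.050) fell. Napsa was the member that rose with added dexamethasone (0.45 ± 0.060), 1 of 18, a share near the 6.98% of all tested genes.

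**Figure D3:**
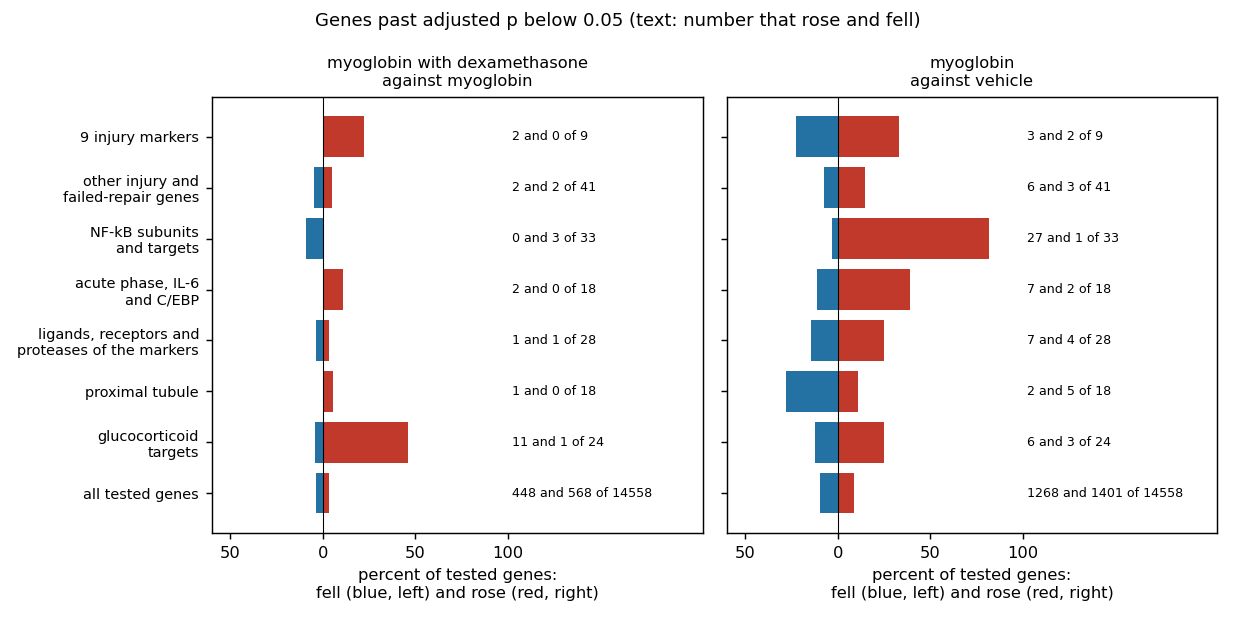
Percent of tested genes of each list (x axis) that fell (left, blue) or rose (right, red), for myoglobin with dexamethasone against myoglobin and for myoglobin against vehicle, with the numbers beside the bars. Of 33 NF-kB genes 27 rose with myoglobin, 11 of 24 glucocorticoid targets rose with added dexamethasone, and the 9 injury markers moved in both directions with myoglobin.

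Cells other than tubular epithelium can also express some of the markers. Endothelium can express Vcam1 and Icam1. Of 10 endothelial markers 7 had a mean below 10, with Pecam1, Cdh5, Emcn and Sele between 0 and 6 in every library, and Flt1 (23 to 52), Esam (37 to 64) and Egfl7 (55 to 80) were higher. The summed values of the 10 were 151 to 180 with both agents, 150 to 184 with myoglobin and 175 to 193 with vehicle. Of 12 measured immune markers 7 had a mean below 10, with Tyrobp at 0 to 7 and C1qa at 0 to 3, while Ptprc (CD45) ranged from 320 to 484, Cd68 from 62 to 116 and Lyz2 from 28 to 112. Cd14, a lipopolysaccharide receptor gene of myeloid and other cells, averaged 507 ± 43.7 with myoglobin and 352 ± 24.1 with vehicle and rose by 0.52 ± 0.099 (limma adjusted p 0.00134). Ptprc fell with myoglobin (-0.38 ± 0.063, limma adjusted p 0.000408) and rose with added dexamethasone (0.31 ± 0.063, limma adjusted p 0.00767). Of 5 tested immune markers, 1 rose and 1 fell with myoglobin, beside 18.3% of all tested genes passing. For both agents against vehicle Cd14 rose (0.38 ± 0.099) and Cd68 fell (-0.52 ± 0.13). The sums of the 12 immune markers were 938 to 1161 with both agents, 1002 to 1160 with myoglobin and 916 to 1084 with vehicle. Of 10 fibroblast and pericyte markers 8 had a mean of at least 10, and the sums were 183 to 290, 311 to 357 and 422 to 499 in the same order of groups, without overlap. Rgs5 made up the largest part of the mean sums, with 93 to 155, 159 to 191 and 236 to 305. Dcn had 5 to 19, 23 to 35 and 10 to 25. Of 8 tested, 2 fell and 6 did not pass with myoglobin, and 4 fell and 4 did not pass for both agents against vehicle. With added dexamethasone 2 fell, and 0 did so without replicate 4. Of all tested genes, 18.3% passed for myoglobin, 28.6% for both agents against vehicle and 6.98% for added dexamethasone. Podocyte markers summed to 663 to 764, 632 to 848 and 715 to 1046. The part of these cells in the changes of the markers was not tested.

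The markers differ widely in how densely their transcripts were read. Reads per exonic base, estimated from the value, the size factor and the GENCODE M21 exon length and averaged over 12 libraries, were 0.580 for Spp1, 0.527 for Clu, 0.458 for Lcn2, 0.298 for Sox9, 0.271 for Icam1, 0.121 for Cd44, 0.10 for Vcam1, 0.0118 for Havcr1 and 0.00922 for Fga. Spp1, Clu and Lcn2 had more reads per base than 99.7% to 99.9% of 14551 tested genes with a length, whereas 16.3% of genes had fewer than Havcr1 and 13.4% fewer than Fga. The highest value of any tested gene was 0.689, and 21 genes exceeded 0.5. Per kilobase of exon, the levels with vehicle were 607 ± 2.29 for Spp1, 518 ± 5.67 for Clu, 356 ± 4.75 for Lcn2, 306 ± 11.3 for Sox9, 184 ± 5.32 for Icam1, 120 ± 20.5 for Cd44, 69.6 ± 4.69 for Vcam1, 21.1 ± 6.74 for Havcr1 and 9.55 ± 2.28 for Fga. The ranges of neighbours in this order did not overlap with vehicle. With both agents Spp1, Clu and Lcn2 overlapped, as did Icam1 with Sox9 and Vcam1 with Cd44. With myoglobin Clu overlapped with Spp1 and with Lcn2, Vcam1 with Cd44, and Havcr1 with Fga.

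Large changes were counted by how densely genes were read. With myoglobin, 293 of 4472 genes below 0.03 reads per base (6.55%) passed with a change of at least 2-fold, as did 83 of 5881 genes at 0.03 to 0.1 (1.41%) and 26 of 3905 genes at 0.1 to 0.3 (0.666%). Of 293 genes at 0.3 and above, the class of Spp1, Clu and Lcn2, limma called 0 with such a change, and 0 had one at an unadjusted p below 0.05. The share that passed at any size was 18.1% in the lowest class and 14.0% in the highest, with median absolute changes of 0.26 and 0.071. For both agents against vehicle the order was the other way, with 26.9% passing in the lowest class and 41.0% in the highest, 2 of them with a change of at least 2-fold. With added dexamethasone, 5.72% and 5.80% passed, and the median absolute change was 0.20 in the lowest class, 0.078 and 0.076 in the middle classes and 0.15 in the highest. Spread fell along the same scale, with a median coefficient of variation with vehicle of 15.9% below 0.03 and 2.68% at 0.3 and above. Spp1 with vehicle had a variance of 0.014 times its mean, and Sox9 with myoglobin 0.040, beside a median of 0.606 in the highest class and 0.938 in the lowest. Whether a limit on densely read transcripts enters the small changes of Spp1, Clu, Lcn2 and Sox9 was not tested.

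Replicate 4 of myoglobin with dexamethasone showed the same gradient. Its estimated reads were 0.626 times the mean of replicates 1 to 3 over all genes, and by class the median ratio was 0.498 below 0.03 reads per base, 0.573, 0.655 and 0.776 at 0.3 and above. Among the markers the ratio was 0.888 for Clu, 0.835 for Spp1 and 0.823 for Lcn2, against 0.754 for Havcr1, 0.717 for Sox9, 0.702 for Icam1, 0.690 for Cd44, 0.592 for Vcam1 and 0.503 for Fga. In deposited values, replicate 4 was 1.51 times the mean of the other 3 for Clu, 1.42 times for Spp1, 1.40 times for Lcn2, 1.29 times for Havcr1, 1.22 times for Sox9, 1.20 times for Icam1, 1.18 times for Cd44, 1.01 times for Vcam1 and 0.861 times for Fga. The 3 markers with the most reads per base thus had the 3 highest ratios, and Havcr1, with few reads, came next.

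**Figure D4:**
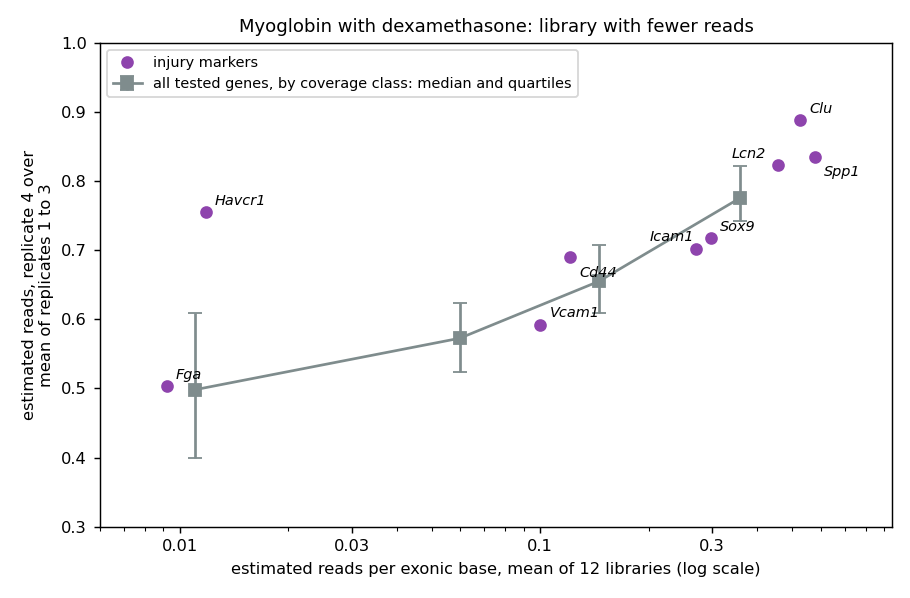
Estimated reads of a gene in replicate 4 of myoglobin with dexamethasone, divided by the mean of replicates 1 to 3 (y axis), against estimated reads per exonic base over 12 libraries (x axis, log scale), for the 9 injury markers (purple) and for all tested genes by class (grey, median and quartiles). The class medians run from 0.498 to 0.776, with Clu, Spp1 and Lcn2 at 0.888, 0.835 and 0.823 and Fga at 0.503.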

How the data were processed

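The deposited table holds, per gene and library, a whole number treated as a normalised score, since its steps fit the authors' reads per gene after division by a library's size factor and rounding. Factors recovered from the steps between values were 0.5685 to 1.1126, and 100% of low values lay on a step. With a factor above 1 every whole number is a step, so that share says nothing about those libraries. It bears only on those with a factor below 1, replicate 3 of myoglobin and replicates 1, 2 and 4 of both agents. The factors were also fitted to the same low values. The build mm10 and the tools STAR 2.7.10a, featureCounts 2.0.3, DESeq2 1.36.0, Trimmomatic 0.39 and Picard 2.27.4 come from the submitters' processing notes, which give no roles here.

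Genes that reached 10 in 4 or more of the 12 libraries were tested with limma-trend (limma 3.58.1, R 4.3.3) on log2(value + 1), all 3 groups in 1 model, two-sided, Benjamini-Hochberg adjusted over 14558 genes per comparison. The model was tested on simulated data. Pairs of markers were tested by exact permutation (70 splits), adjusted over 108 tests. Other steps used scipy 1.17.1, pandas 2.3.3, numpy 2.4.6, matplotlib 3.10.9 and Python 3.11.15. Of the genes, 20592 (98.9%) have the same coordinates in GENCODE M21, which gave exon lengths. Promoters are RefSeq's. Estimated reads were 3.25 to 5.92 M per library, which with 4 libraries per group limits the precision of Havcr1 and Fga most.

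The markers and lists were chosen with earlier results of these data known. Named beside the markers are the 2 passing genes of each list with the smallest p per direction, the 2 genes nearest to each marker (Gm and Rik names left out, and for Clu and Fga 1 gene not reported here), and Fgb, Fgg, Nr3c1, Fkbp5 and Hmox1. Other genes of a marker list were named after their values were seen. Lists count only members in the table. Alternatives were other pseudocounts, filters, scalings, weights, models and each library left out.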

Additional observations from a re-analysis of the deposited data

Results flagged for a closer look

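In 27 sets of 4 libraries (9 markers in 3 groups), a library was picked out when its distance to the nearest other library exceeded Dixon's 95% limit as a share of the whole range, which chance passes in about 1 of 20 sets. Spp1 in replicate 4 of myoglobin with dexamethasone, at 1309, was picked out, the next library being at 945. Lcn2 in replicate 1 of the vehicle group, at 951, was picked out as well, with the next library at 928, so that the whole group spans 924 to 951.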

How the results depend on the processing

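Of 594 recomputed marker changes, 547 kept their direction and their side of the threshold, 16 newly passed and 16 no longer passed. A further 14 that passed in neither case changed sign (Havcr1 for added dexamethasone, Cd44 for myoglobin, and Spp1, Sox9 and Cd44 for both agents against vehicle). The 1 change of sign that passed was Spp1 for both agents against vehicle without replicate 4 of both agents, at -0.12 (limma adjusted p 0.0387), and its values ran from -0.12 to 0.075 with 1 library left out. Havcr1, Vcam1, Icam1 and Lcn2 for myoglobin against vehicle, the same 4 for both agents against vehicle, and Fga for added dexamethasone passed under every alternative. With array weights, 4314 genes passed for myoglobin against vehicle instead of 2669. For added dexamethasone, where 1016 genes passed, 1625 did so with array weights, 639 in a model of the 2 compared groups and 551 to 1284 with 1 library left out (617 and 551 without myoglobin replicates 2 and 4). Of the 9 markers, 2 passed in that comparison, against 4 with quantile normalization, 1 in the 2-group model, 1 with scaling on sparsely read genes (added after the data were seen) and 1 to 3 with 1 library left out. Pairs of markers past the threshold numbered 63 with quantile normalization instead of 0. Pairs at the smallest possible p pass or fail together, so both numbers follow from how many pairs reach it. Why more pairs reached it with quantile normalization was not tested. With scaling on sparsely read genes, 487 genes rose and 404 fell with added dexamethasone, beside 448 and 568. For both agents against vehicle, 2029 rose and 2132 fell with the deposited scaling, 1565 and 2648 with equal totals, and 2516 and 1732 with scaling on sparsely read genes. Libraries with the same number had correlations of -0.015 to 0.46, 9 of 12 above 0.1. Of 24 best matches, each among the 4 libraries of another group, 20 fell on the own number. Libraries that share a number were thus mostly the most alike. The labels do not say what a number stands for, so the main model used no pairing. With the replicate block, 3503, 1788 and 5272 genes passed for myoglobin, added dexamethasone and both agents, and Lcn2 passed for added dexamethasone (limma adjusted p 0.0367, with 0.0224 to 0.192 over all alternatives). For Cd44 the block gave an SE of 0.053 instead of 0.12. Cd44 still did not pass for myoglobin or added dexamethasone (limma adjusted p 0.125 and 0.0701). Low read numbers limit Havcr1 and Fga.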
